A study of Rattus norvegicus and Mus musculus with 18 samples.

Results

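Hox genes encode homeodomain transcription factors and lie in 4 chromosomal clusters, Hoxa to Hoxd, in which members with the same paralogue number descend from 1 ancestral gene. The genes described here were all those whose only annotated symbol on a probe set was Hox followed by a cluster letter and a number. Of the 39 genes that such a rule can reach, 33 were analysed through a probe set of their own on the mouse array and 15 on at least 1 of the 3 rat arrays, 14 of them in both species and 34 in either. The mouse genes were among 18193 with a probe set that names them alone. The other members were not analysed here. A gene with several probe sets was represented by the one with the highest mean log2 intensity.

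The order of Hox genes along a cluster matches the order in which they are expressed along the body axis, from low numbers in the head and neck to high numbers in the tail. In the embryonic kidney the group 11 genes act in the mesenchyme with Eya1 and Pax2 to switch on Six2 and Gdnf, and mice that lack them fail to form the organ. The Hoxb7 promoter is a common driver of transgenes in the ureteric bud.

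The arrays were Affymetrix oligonucleotide arrays, 6 of mouse and 12 of rat tissue, hybridised with RNA of embryos for which the labels name no strain and no treatment. Mouse metanephric kidneys at E12.5 had been separated into ureteric bud tips, bud stalks and mesenchyme, in pools of about 1000, 350 and 300 pieces. Rat kidneys at E13.5 had been separated into about 1200 whole buds and 240 mesenchymes, and each RNA went to 3 array designs, named here the first design, B and C. All tissues had been digested for 10 min with trypsin and DNase. There were 2 arrays for each tissue and design, and these were separate labelings of 1 pooled RNA, so every SE and p-value measures labelling and hybridisation only and not the spread between embryos.

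All values are normalised array intensities, and differences are on the log2(intensity + 16) scale, which understates the change of weak signals. A gene was tested when its mean log2 value in 1 or more tissues was at or above the median of the table, an intensity of 49.3 in mouse. It was called higher or lower when the Benjamini-Hochberg adjusted p of the limma fit was under 0.05 and the difference was at least 2-fold. Each probe set has its own response, so intensities were compared between tissues and never between genes.

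The dissection was visible in marker genes of bud epithelium and nephron progenitors, and no list of stalk markers was used. The summed intensity of 12 bud epithelial markers was 33763 and 32985 on the tip arrays, 17545 and 17898 on the stalk arrays, and 874 and 782 on the mesenchyme arrays, where E-cadherin (Cdh1) was at 18.1 and 13.2. The sum of 10 stromal markers was 2510 and 2261 in tips, 18178 and 18115 in stalks, and 15345 and 15164 in mesenchyme. The stalk arrays were the highest for this sum and the tip arrays the lowest. The summed ureteric mesenchyme and smooth muscle markers, 7 genes, had the same order. They stood at 634.5 and 669 in tips, 5046 and 5136 in stalks, and 2717 and 2714 in mesenchyme. The sum of 8 nephron progenitor markers was 813 and 705 in tips, 2041 and 1962 in stalks, and 6450 and 6461 in mesenchyme. In pooled tissue of this kind, fewer cells of a type and less RNA per cell cannot be told apart.

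Neighbouring genes of the Hoxd cluster differed between bud and mesenchyme in opposite directions. Hoxd8, Hoxd9 and Hoxd10 follow each other with no other protein-coding gene between them in the rat RefSeq annotation (GRCr8). Hoxa11, a group 11 gene, was called lower in mouse tips and rat buds than in mesenchyme, but was less than 2-fold lower in mouse stalks. The 250 bases before the annotated start are shown for Hoxd8, Hoxd9, Hoxd10 and Hoxa11 as examples. They come from the RefSeq table of rat promoters, which held a promoter for 8 of the 15 rat genes measured, and are written 5′ to 3′ on the strand of the gene. The positions are chr3:80014973-80015222 on the plus strand for Hoxd8, chr3:80007756-80008005 on the plus strand for Hoxd9, chr3:80001697-80001946 on the plus strand for Hoxd10 and chr4:82676802-82677051 on the minus strand for Hoxa11. Capitals mark TGACCT, the reverse complement of the nuclear receptor half-site AGGTCA.
Hoxd8: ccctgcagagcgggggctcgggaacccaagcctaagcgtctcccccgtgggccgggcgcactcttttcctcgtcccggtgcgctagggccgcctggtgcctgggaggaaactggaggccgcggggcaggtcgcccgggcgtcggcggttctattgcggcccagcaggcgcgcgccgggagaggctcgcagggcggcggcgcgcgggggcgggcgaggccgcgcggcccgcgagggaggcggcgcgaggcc
Hoxd9: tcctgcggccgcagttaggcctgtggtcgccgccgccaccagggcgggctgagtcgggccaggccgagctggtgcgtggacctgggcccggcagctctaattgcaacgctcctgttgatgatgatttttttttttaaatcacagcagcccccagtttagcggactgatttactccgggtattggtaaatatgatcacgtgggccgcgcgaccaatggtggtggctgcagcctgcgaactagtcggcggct
Hoxd10: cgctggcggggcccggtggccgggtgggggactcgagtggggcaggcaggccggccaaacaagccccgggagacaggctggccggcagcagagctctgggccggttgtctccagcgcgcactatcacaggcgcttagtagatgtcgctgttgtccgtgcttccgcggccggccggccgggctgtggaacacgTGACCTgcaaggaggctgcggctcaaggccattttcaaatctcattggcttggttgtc
Hoxa11: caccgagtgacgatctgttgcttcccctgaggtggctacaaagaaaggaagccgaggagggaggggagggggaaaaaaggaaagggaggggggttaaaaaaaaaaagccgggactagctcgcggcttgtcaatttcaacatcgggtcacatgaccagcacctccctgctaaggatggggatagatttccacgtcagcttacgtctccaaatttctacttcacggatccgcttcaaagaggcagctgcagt
The motifs searched, on both strands, were the half-site AGGTCA, the TATA box TATAAA, the Cdx core TTTATG and the Hox-Pbx site TGATNNAT. Of the 4 promoters shown, Hoxd10 held an AGGTCA half-site, and no other match was found in these windows. Among all 33469 rat promoters, 14.1% held AGGTCA, 12.9% TATAAA, 11.4% TTTATG and 7.96% TGATNNAT, and among the 21 Hox promoters in the table the numbers were 3, 4, 2 and 3. The windows held 38 CpG dinucleotides for Hoxd8, 20 for Hoxd9, 21 for Hoxd10 and 11 for Hoxa11, against a median of 5 over all promoters.

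Most tested Hox genes differed between bud tips and mesenchyme, and those called lower in tips outnumbered those called higher. Of the 33 mouse genes, 28 were tested, and 18 of these were called, 5 higher and 13 lower in tips, where 8.17% of all probe sets tested were called in either direction (3.9% higher and 4.26% lower). The median log2 difference of the 28 genes was -0.83, against 0.01 over all probe sets. Between tips and stalks 12 genes were called, 1 higher and 11 lower in tips, with 4.59% called over all probe sets (0.953% higher and 3.64% lower) and medians of -0.18 and 0.06. Between stalks and mesenchyme 5 were called, 2 higher and 3 lower in stalks, with 2.77% called over all probe sets (2.35% higher and 0.426% lower) and medians of -0.51 and -0.05. The 3 comparisons share arrays, and 19 genes were called in at least 1 of them.

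**Figure D1:**
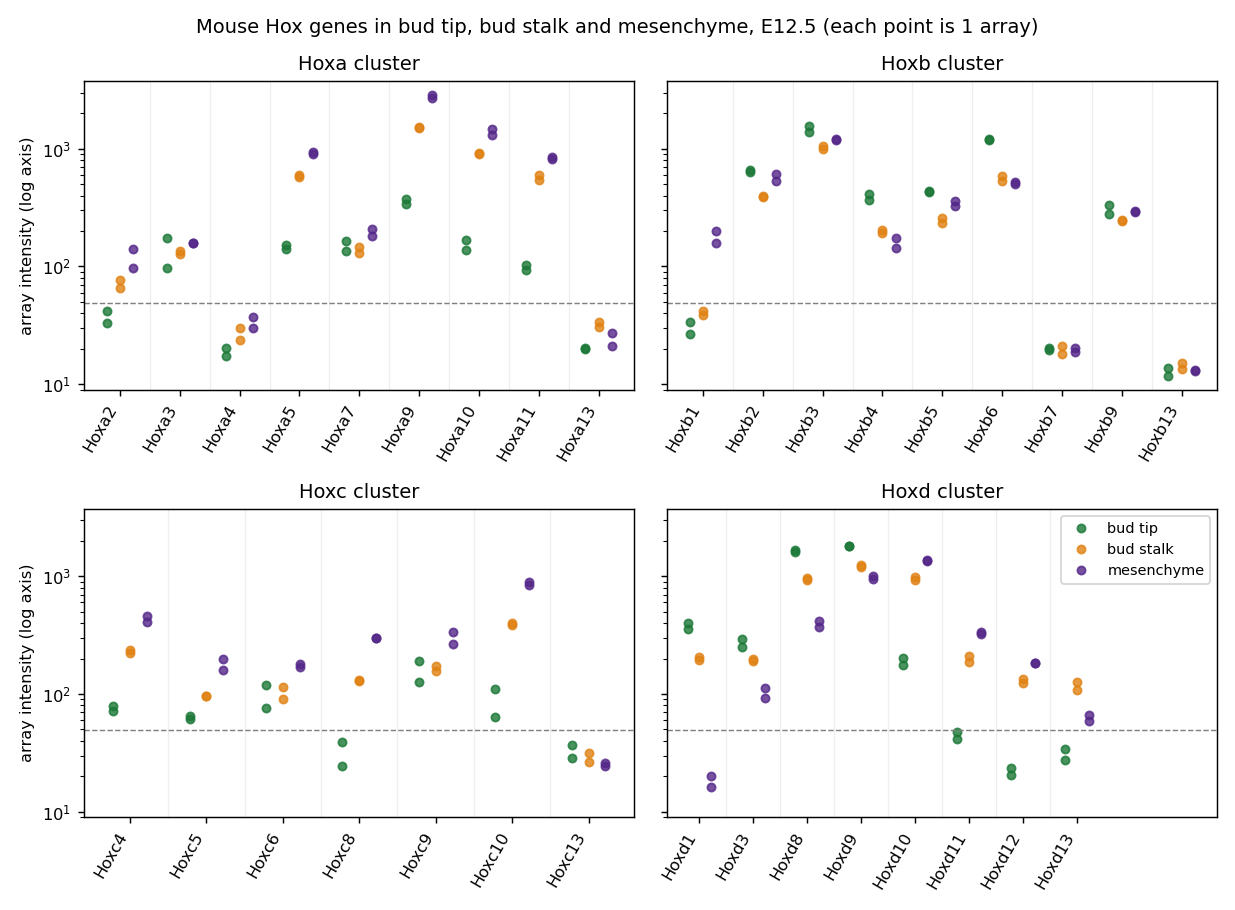
Normalised intensity (log axis) of 33 mouse Hox genes by cluster, with 2 arrays each of bud tip, bud stalk and mesenchyme as single points and the filter intensity of 49.3 as a dashed line. Mesenchyme had the highest mean for 17 of the 28 tested genes, tips for 10 and stalks for 1, Hoxd13.

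The tissue with the highest mean intensity was the mesenchyme for 17 of the 28 genes, the tips for 10 and the stalks for 1. The arrays of tips and mesenchyme did not overlap for 26 genes, those of tips and stalks for 24, and those of stalks and mesenchyme for 28. Over all probe sets tested, the arrays did not overlap for 59.9%, 65.1% and 59.5%, respectively. The 5 genes below the filter were Hoxa4 (intensities of 17.2 to 37.4 over the 6 arrays), Hoxa13 (20.0 to 34.0), Hoxb7 (18.0 to 21.1), Hoxb13 (11.8 to 15.1) and Hoxc13 (24.6 to 36.6), and nothing was read from their differences.

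By paralogue number, the called genes of groups 9 to 13 were all lower in tips. Of 11 tested genes in these groups, 7 were called lower and 0 higher in tips than in mesenchyme, and 8 were called lower and 0 higher in tips than in stalks. Of 9 tested genes in groups 1 to 4, 3 were called higher and 3 lower in tips than in mesenchyme, and 1 was called lower in tips than in stalks. Of 8 tested genes in groups 5 to 8, 2 were called higher and 3 lower in tips than in mesenchyme. Against stalks, 1 of these 8 was called higher and 2 lower in tips. The share called against mesenchyme was 66.7% in groups 1 to 4, 62.5% in groups 5 to 8 and 63.6% in groups 9 to 13. Over all probe sets tested, 3.9% were called higher and 4.26% lower in tips than in mesenchyme. For tips against stalks these shares were 0.953% and 3.64%. Group 10 was the only group with 3 or more tested genes in which every gene was called, and all 3 were lower in tips. Group 9 was split, with tip minus mesenchyme differences of -2.92 for Hoxa9, -0.88 for Hoxc9, 0.06 for Hoxb9 and 0.89 for Hoxd9. Group 1 was split as well, with -2.07 for Hoxb1 and 3.53 for Hoxd1.

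**Figure D2:**
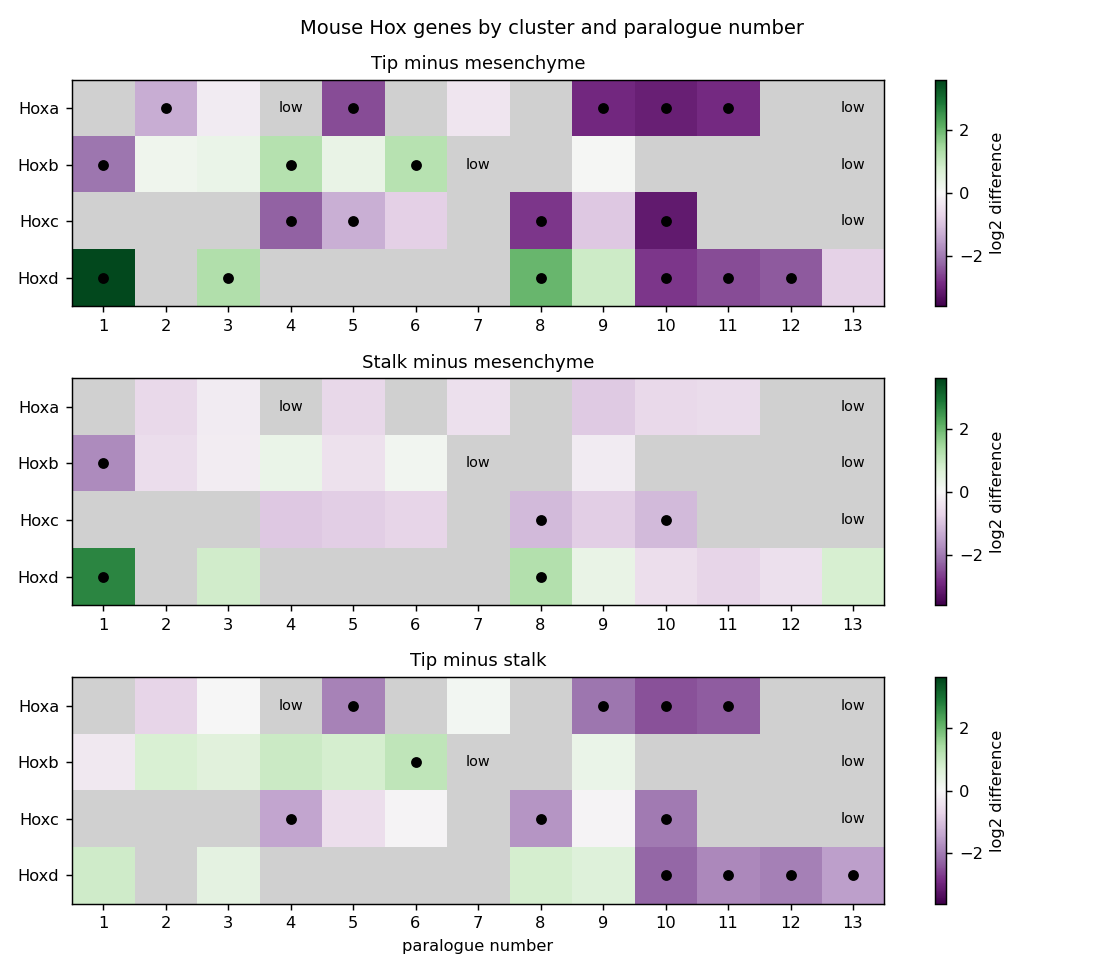
Log2 differences of mouse Hox genes by cluster (vertical) and paralogue number (horizontal) for tip minus mesenchyme, stalk minus mesenchyme and tip minus stalk, with dots on called genes, grey where no gene was analysed here and "low" where a gene was below the filter. Groups 10 to 12 are lower in tips in each cluster measured, Hoxd1, Hoxd3 and Hoxd8 are higher, and fewer dots appear for stalk minus mesenchyme.

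The Hoxa cluster was lower in tips for 5 of its 7 tested genes and higher for none, with a median tip minus mesenchyme difference of -2.52. The called genes were Hoxa2, Hoxa5, Hoxa9, Hoxa10 and Hoxa11. Of all probe sets tested, 4.26% were called lower and 3.9% higher in tips than in mesenchyme. Hoxa11, one of the group 11 genes that kidney induction depends on, had intensities of 103 and 93.8 in tips, 542 and 599 in stalks, and 813 and 857 in mesenchyme. The tip arrays were the lowest and the mesenchyme arrays the highest, without overlap, and the log2 difference was -2.89 (SE 0.08, adjusted p = 2.07e-08) between tips and mesenchyme and -2.36 (SE 0.08, adjusted p = 1.76e-07) between tips and stalks. Between stalks and mesenchyme Hoxa11 differed by -0.54, less than 2-fold.

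Hoxa10, which patterns the lumbar spine and the uterus, had intensities of 167 and 138 in tips, 915 and 911 in stalks, and 1478 and 1300.4 in mesenchyme. The order of tissues was the same as for Hoxa11, again without overlap, and tips differed from mesenchyme by -3.06 (SE 0.09, adjusted p = 3.22e-08) and from stalks by -2.47 (SE 0.09, adjusted p = 2.89e-07). Hoxa9, which also acts in blood progenitors, stood at 372 and 336 in tips, 1540.0 and 1498 in stalks, and 2692 and 2859 in mesenchyme. Its tip arrays were at 12.8% of the mesenchyme level by the means and its stalk arrays at 54.7%, with log2 differences from mesenchyme of -2.92 (SE 0.058, adjusted p = 3.96e-09) and -0.86. A second Hoxa9 probe set gave a smaller tip minus mesenchyme difference of -1.46 that was also called, and a tip minus stalk difference of -0.68 that was not.

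Hoxa5, known for its part in lung and cervicothoracic skeleton formation, read 153 and 139.5 in tips, 596 and 577 in stalks, and 932 and 898 in mesenchyme. All stalk arrays lay between those of tips and mesenchyme, and the tip minus mesenchyme difference was -2.52 (SE 0.068, adjusted p = 1.78e-08). A second Hoxa5 probe set differed by -0.82 between tips and mesenchyme and -0.37 between tips and stalks, in the same direction but under 2-fold, where the first was at -1.89 between tips and stalks. Hoxa2, a hindbrain and branchial arch gene, read 42.0 and 33.3 in tips, 76.3 and 65.5 in stalks, and 139.7 and 97.0 in mesenchyme, weak signals in each tissue. Its difference was -1.31 (SE 0.18, adjusted p = 0.000535), and it fell to -0.83 and was no longer called with a pseudocount of 64. Hoxa3 and Hoxa7 were not called on their representative probe sets, at -0.24 and -0.35. The tip arrays of Hoxa3 spanned its values in the other tissues. A dimmer Hoxa3 probe set with 47.2 and 26.3 in tips, 75.0 and 77.2 in stalks, and 129.8 and 104 in mesenchyme was called lower in tips, at -1.36 (SE 0.2, adjusted p = 0.000755).

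The Hoxc cluster had the same direction, with 4 of 6 tested genes called lower in tips than in mesenchyme, 0 higher, and a median of -1.79. The shares called over all probe sets were 4.26% lower and 3.9% higher. Hoxc10, a lumbar motor neuron and spine gene, read 111 and 64.4 in tips, 398 and 389 in stalks, and 893 and 849.8 in mesenchyme. Tips were lowest and mesenchyme highest, without overlap, and the difference was -3.13 (SE 0.18, adjusted p = 1.67e-06). It ranged from -3.46 to -2.64 over the alternatives and was within its SE of that of Hoxa10. Hoxc10 was also lower in stalks than in mesenchyme, by -1.12 (SE 0.18, adjusted p = 0.00304). Hoxc8, which acts in thoracic vertebrae and motor neurons, read 39.2 and 24.4 in tips, 133 and 129 in stalks, and 302 and 297 in mesenchyme. The tip values lay under the filter intensity and the stalk values at a fraction of the mesenchyme level, 43.6% by the means. The differences were -2.74 (SE 0.16, adjusted p = 1.98e-06) for tips and -1.10 (SE 0.16, adjusted p = 0.00172) for stalks against mesenchyme, the latter falling to -0.90 with a pseudocount of 64.

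Hoxc4, a cervical and upper thoracic gene, had intensities of 79.3 and 72.5 in tips, 223 and 235 in stalks, and 406 and 461 in mesenchyme. The tissues kept the order tip, stalk, mesenchyme without overlap, with a tip minus mesenchyme difference of -2.29 (SE 0.1, adjusted p = 4.33e-07). Hoxc5 was at 61.5 and 65.7 in tips, 95.9 and 95.6 in stalks, and 198 and 161 in mesenchyme, and its difference was -1.29 (SE 0.14, adjusted p = 9.52e-05). That call was lost with a pseudocount of 64, at -0.93, and with the mean of its probe sets, at -0.64. Another Hoxc5 probe set differed by -0.18. Hoxc6 and Hoxc9 were under 2-fold, at -0.77 (SE 0.19, adjusted p = 0.0123) and -0.88 (SE 0.18, adjusted p = 0.00464). Hoxc9 read 126 and 190.3 in tips, 156 and 173 in stalks, and 267 and 335 in mesenchyme. For both of them the tip and stalk arrays overlapped, and the 2 tip arrays differed from each other by more than the stalk arrays did. Without the second tip array Hoxc6 was at -1.05 and Hoxc9 at -1.15, past 2-fold, and Hoxc9 was at -1.03 without the first mesenchyme array. A second Hoxc6 probe set was called at -1.07.

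In the Hoxb cluster the called genes went in both directions between tips and mesenchyme. Of 7 tested genes, 2 were called higher in tips than in mesenchyme and 1 lower, and the median was 0.29. That is 42.9% called, against 8.17% of all probe sets tested (3.9% higher and 4.26% lower). Hoxb6, expressed in posterior and lateral mesoderm of the embryo, read 1207 and 1179 in tips, 532 and 587 in stalks, and 517 and 500.0 in mesenchyme. The tip arrays were highest and the other 4 lay close together, with a tip minus mesenchyme difference of 1.21 (SE 0.06, adjusted p = 8.41e-07) and a tip minus stalk difference of 1.07 (SE 0.06, adjusted p = 3.58e-06). Among probe sets that name 1 gene, Hoxb6 was the 1 Hox gene called higher in tips than in stalks. Between stalks and mesenchyme it differed by 0.13 (SE 0.06, adjusted p = 0.216). Hoxb4, a gene used to expand blood stem cells, read 415 and 364 in tips, 205 and 193 in stalks, and 175 and 143 in mesenchyme. Tips were highest without overlap, at 1.21 (SE 0.11, adjusted p = 4.84e-05) against mesenchyme and 0.91 (SE 0.11, adjusted p = 0.000456) against stalks, and the latter reached 1.00 and was called without the second tip array. A second Hoxb4 probe set read 149 and 126 in tips, 73.8 and 84.8 in stalks, and 72.6 and 71.7 in mesenchyme, the same order, but its tip minus mesenchyme difference of 0.80 was under 2-fold and not called.

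Hoxb2, Hoxb3, Hoxb5 and Hoxb9 were not called in any mouse comparison, with tip minus mesenchyme differences of 0.18, 0.29, 0.32 and 0.06. Their tip minus stalk differences were 0.71, 0.51, 0.77 and 0.30, all positive but under 2-fold, and for each of the 4 genes the stalk had the lowest mean. Hoxb5, for example, read 438 and 426 in tips, 236 and 258 in stalks, and 326 and 359.9 in mesenchyme. Hoxb9 read 281 and 334 in tips, 248 and 245 in stalks, and 290.0 and 298 in mesenchyme. Hoxb1, which specifies hindbrain identity, differed from the rest of its cluster, with 26.7 and 33.6 in tips, 38.3 and 41.9 in stalks, and 157 and 201 in mesenchyme. Both bud tissues lay under the filter intensity and the mesenchyme arrays well above it, and the differences from mesenchyme were -2.07 (SE 0.16, adjusted p = 1.23e-05) for tips and -1.79 (SE 0.16, adjusted p = 9.55e-05) for stalks. The probe set that names Hoxb7 alone read 18.0 to 21.1 in all tissues. A probe set shared by Hoxb7 and Hoxb8 read 1316 and 1239 in tips, 530.1 and 609 in stalks, and 321 and 356 in mesenchyme. Its tips were highest and its mesenchyme lowest, without overlap, and tips were called above mesenchyme by 1.87 (SE 0.08, adjusted p = 3.14e-07) and above stalks by 1.15 (SE 0.08, adjusted p = 1.39e-05), but its signal cannot be assigned to either gene.

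The Hoxd cluster was divided along its length. Of 8 tested genes, Hoxd1, Hoxd3 and Hoxd8 were called higher in tips than in mesenchyme and Hoxd10, Hoxd11 and Hoxd12 lower, and the median was 0.07. The shares called over all probe sets were 3.9% higher and 4.26% lower. Hoxd1, a gene of pain-sensing neurons in mouse, read 398 and 356 in tips, 206 and 196 in stalks, and 19.9 and 16.2 in mesenchyme. The mesenchyme values were under the filter intensity and both bud tissues far above it, and the differences of 3.53 (SE 0.12, adjusted p = 8.75e-08) for tips and 2.67 (SE 0.12, adjusted p = 1.64e-06) for stalks were the most positive of the 28 genes in each comparison. Hoxd3, which shapes the first neck vertebrae, read 293 and 252 in tips, 199.5 and 191 in stalks, and 112 and 93.4 in mesenchyme, and tips exceeded mesenchyme by 1.28 (SE 0.12, adjusted p = 4.83e-05). A pair of probe sets shared by Hoxd3 and Hoxd4 had the same order, and the brighter read 984 and 934 in tips, 483 and 503 in stalks, and 329 and 295 in mesenchyme.

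Hoxd8, which lies midway along the cluster, read 1669 and 1600.2 in tips, 939 and 963 in stalks, and 368 and 415 in mesenchyme. The 3 tissues were well apart, with differences from mesenchyme of 2.02 (SE 0.062, adjusted p = 4.43e-08) in tips and 1.25 (SE 0.062, adjusted p = 2.8e-06) in stalks. A second Hoxd8 probe set had the same order and was called in tips, at 1.66, but not in stalks, at 0.89. Hoxd9, the next gene, read 1825 and 1814 in tips, 1201 and 1244 in stalks, and 1000.0 and 949.7 in mesenchyme. The same order held without overlap, but the difference of 0.89 (SE 0.046, adjusted p = 9.71e-07) was under 2-fold and not called. Hoxd10, the gene after it and like Hoxd9 a lumbar motor neuron gene, read 203 and 175 in tips, 985 and 929 in stalks, and 1372 and 1353 in mesenchyme. Here the order was reversed, with tips lowest and mesenchyme highest without overlap, and the difference was -2.75 (SE 0.072, adjusted p = 1.57e-08) between tips and mesenchyme and -2.25 (SE 0.072, adjusted p = 1.37e-07) between tips and stalks.

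The genes beyond Hoxd10 kept that order up to Hoxd12. Hoxd11, the second group 11 gene measured and one that shapes the forearm, read 48.0 and 41.7 in tips, 212 and 186 in stalks, and 337 and 321 in mesenchyme, with a tip minus mesenchyme difference of -2.51 (SE 0.12, adjusted p = 5.51e-07). Hoxd12, a limb gene, read 23.6 and 20.5 in tips, 133 and 124 in stalks, and 184 and 182 in mesenchyme, with a difference of -2.39 (SE 0.13, adjusted p = 1.17e-06). For both of them every tip array was under the filter intensity and the stalk arrays lay between. Hoxd13, the last gene of the cluster and known for digits and genitalia, read 34.4 and 27.6 in tips, 108 and 126 in stalks, and 66.0 and 59.6 in mesenchyme. It was the 1 tested gene with its highest mean in stalks, where it stood at 117 ± 12.6 (SD, n = 2) against 62.8 ± 4.57 in mesenchyme and 31.0 ± 4.83 in tips. The tip minus stalk difference was -1.50 (SE 0.15, adjusted p = 0.000102), which fell to -0.93 with a pseudocount of 64, and the stalk minus mesenchyme difference was 0.75 (SE 0.15, adjusted p = 0.00932), under 2-fold. A second Hoxd13 probe set also had its highest values in stalks, at 53.2 and 58.5, with a tip minus stalk difference of -0.66.

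The stalk lay between tip and mesenchyme for 21 of the 28 tested genes, and for all 18 that were called between tips and mesenchyme. These 18 were selected for a difference of at least 2-fold, and the share with the stalk between over all probe sets was not determined. On a scale of intensity from 0 at the tip mean to 100 at the mesenchyme mean, the stalks of the 13 genes lower in tips stood at 6.74 to 66.3 with a median of 48.1. Over all 1020 probe sets called lower in tips the median was 70.7, with quartiles of 46.4 and 102. The 5 genes higher in tips stood at 45.4 to 92.5 with a median of 55.0, against 57.0 over all 933 probe sets called higher. Hoxb1 was nearest to the tip value, at 6.74, and Hoxb6 nearest to the mesenchyme value, at 92.5. Among genes lower in tips, the 3 of Hoxd stood at 54.2 to 66.3, the 5 of Hoxa at 41.2 to 64.1 and the 4 of Hoxc at 27.7 to 42.8.

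**Figure D3:**
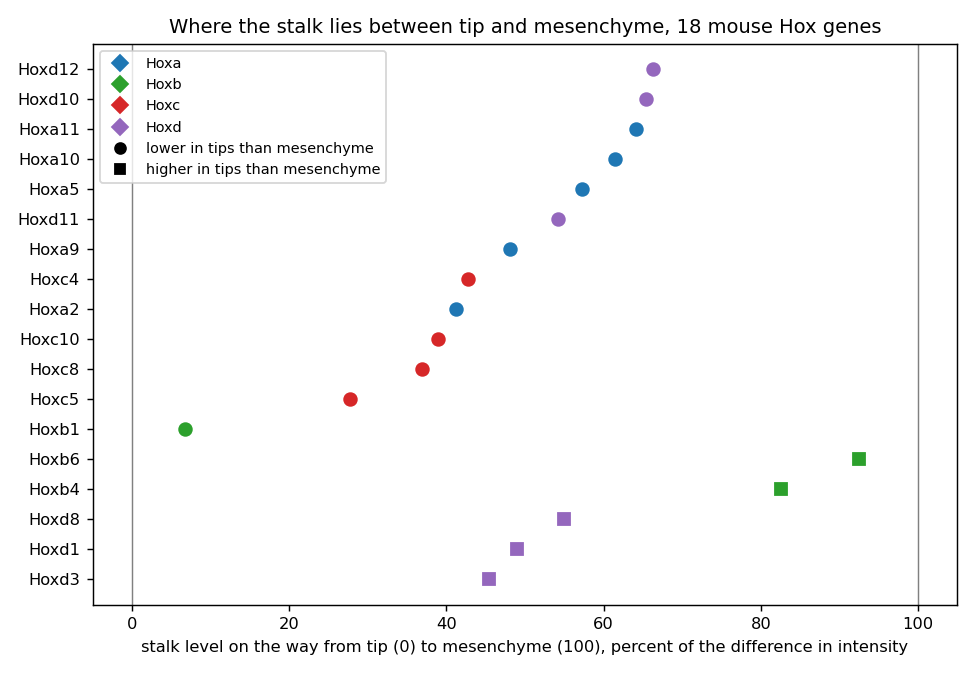
Stalk level of the 18 mouse Hox genes called between tips and mesenchyme, in percent of the intensity difference from the tip mean (0) to the mesenchyme mean (100), coloured by cluster, with circles for genes lower and squares for genes higher in tips. All 18 lie between 0 and 100, from Hoxb1 at 6.74 to Hoxb6 at 92.5.

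On the same scale the 10 stromal markers, all lower in tips, stood at 42.7 to 295 with a median of 116, and the 7 nephron progenitor markers lower in tips at 6.41 to 69.0 with a median of 17.8. The 7 endothelial markers stood at 42.4 to 65.9 with a median of 51.4. The 5 called markers of ureteric mesenchyme and smooth muscle had a median of 242. The median of the Hox genes lower in tips lay between those of the progenitor and stromal markers. The part that these cell types had in the Hox values was not tested.

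Hox proteins bind DNA together with homeodomain cofactors of the Meis, Pbx and Pknox families. Of 7 cofactor genes tested, 4 were called lower in tips than in stalks and 5 lower in tips than in mesenchyme. Over all probe sets tested, 3.64% and 4.26% were called lower. Between stalks and mesenchyme 0 were called, with 2.77% called over all probe sets. There 4 of the 7 had an adjusted p under 0.05 in the limma fit at less than 2-fold, against 13.1% of all probe sets with any size of difference. Meis1 read 95.4 and 68.1 in tips, 880.4 and 842 in stalks, and 1265 and 1226 in mesenchyme. Its tip arrays were far below the other 4, with a tip minus mesenchyme difference of -3.70 (SE 0.12, adjusted p = 4.53e-08). Meis2 had intensities of 386 and 363 in tips, 3022 and 3042 in stalks, and 4392 and 4403 in mesenchyme, the same order, and a difference of -3.50 (SE 0.043, adjusted p = 6.45e-10). Meis3 (-1.76), Pbx3 (-1.25) and Pknox2 (-1.23) were also called lower in tips than in mesenchyme. Pbx2 and Pknox1 were not, at -0.15 and 0.08, and Pbx4 was below the filter.

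The genes known to act with group 11 in the mesenchyme were lower in tips. All 5 tested, Eya1, Six2, Gdnf, Itga8 and Sall1, were called lower in tips than in mesenchyme, and 4 of them, all but Itga8, were called lower in stalks. Over all probe sets tested, 4.26% and 0.426% were called lower in these comparisons. Eya1, a transcriptional coactivator, read 127 and 101 in tips, 489 and 472 in stalks, and 2132 and 2212 in mesenchyme. Its stalk arrays stood nearer to the tips than to the mesenchyme. Six2, which maintains nephron progenitors, read 105 and 105 in tips, 153 and 155 in stalks, and 563 and 633 in mesenchyme, again with stalks nearer to tips. Itga8, an integrin of the mesenchyme, read 113 and 69.3 in tips, 668 and 613 in stalks, and 889 and 884 in mesenchyme, with stalks nearer to the mesenchyme. On the scale from tip to mesenchyme the 5 genes stood at 9.97 to 69.0 with a median of 21.9. Hoxa11 and Hoxd11 stood at 64.1 and 54.2, above that median and within the range, the top of which was Itga8.

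Known regulators of the Hox clusters differed by less than 2-fold between mouse tissues where they could be tested. Of 15 Polycomb subunits tested, which keep silent Hox genes repressed, 0 were called by limma in any of the 3 tissue comparisons, where 4.59%, 8.17% and 2.77% of all probe sets were called between tips and stalks, tips and mesenchyme, and stalks and mesenchyme. In the same order 4, 7 and 1 of them had an adjusted p under 0.05 at less than 2-fold, against 28.6%, 33.7% and 13.1% of all probe sets with any size of difference, and 5, 8 and 7 were under an unadjusted p of 0.05, against 38.8%, 41.6% and 25.2%. Of 6 trithorax group genes, which maintain Hox activity, 0 were called by limma, and 4, 3 and 0 were under an unadjusted p of 0.05. The Cdx genes, which activate Hox genes along the trunk, could not be tested, since Cdx1, Cdx2 and Cdx4 were all below the filter. Of 4 other axial regulators, Gdf11, Nr6a1, Acvr2a and Acvr2b, 0 were called by limma and 1, 2 and 2 were under an unadjusted p of 0.05. The median tip minus mesenchyme differences of the 3 lists were -0.05, 0.15 and 0.30. With lists this short, a count of 0 is near the share of all probe sets called. Within and beside the clusters, 12 other genes were tested. Hoxa11os, transcribed from the opposite strand of Hoxa11, was called lower in tips with 61.5 and 58.5 in tips, 261 and 266 in stalks, and 562 and 459 in mesenchyme, an order of tissues like that of Hoxa11, and a tip minus mesenchyme difference of -2.78 (SE 0.11, adjusted p = 2.11e-07). Skap1, next to Hoxb1, was called higher in tips than in mesenchyme (1.14), and Mtx2, next to Hoxd1, was not called (0.33).

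The rat arrays, which held 15 of the Hox genes, compared whole buds with mesenchyme. Bud epithelial markers summed to 5294 and 5290 in buds and 874 and 949 in mesenchyme on the first design, and stromal markers to 1593 and 1770 in buds and 5812 and 6468 in mesenchyme. The bud epithelial sums were 2916 and 2568 in buds and 515 and 509 in mesenchyme on design B, and 1784 and 1731 in buds and 107 and 101 in mesenchyme on design C. Stromal sums on design C were 2022 and 1734 in buds and 2688 and 2753 in mesenchyme, with 0 of 5 markers called. Nephron progenitor markers summed to 435 and 415 in buds and 879 and 954 in mesenchyme on the first design. On design B they summed to 377 and 460 in buds and 826 and 953 in mesenchyme. Crym, the 1 such marker on design C, went the other way, at 1291 and 864 in buds and 169 and 133 in mesenchyme. The second bud labeling stood apart on every design, with a ratio of Gapdh signal at the 3′ end to the 5′ end of 4.43, 5.28 and 4.26, against 1.25 to 1.47 on the other rat arrays. All 7 rat Hox calls were also made without that labeling, in a fit that assumes the lone bud array to vary like the mesenchyme arrays.

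On the first design 1 of 4 tested Hox genes was called, lower in buds, where 5.78% of all probe sets were called (2.75% higher and 3.03% lower). Design B gave 5 of 12, 2 higher and 3 lower in buds, again with 5.78% called over all probe sets (3.05% higher and 2.73% lower). Design C gave 1 of 2, higher in buds, with 4.63% called (2.22% higher and 2.41% lower). Hoxc8 was below the filter. Hoxd10 read 46.1 and 54.7 in buds and 465 and 523 in mesenchyme, with no overlap and a bud minus mesenchyme difference of -2.94 (SE 0.12, adjusted p = 8.46e-05). Hoxa11 read 71.3 and 74.9 in buds and 493 and 521 in mesenchyme on design B, also with buds lowest and no overlap, and the difference was -2.55 (SE 0.1, adjusted p = 8.22e-05). A second Hoxa11 probe set gave -2.93. Hoxa5 on the first design read 56.9 and 64.3 in buds and 361 and 326 in mesenchyme, with a difference of -2.23 (SE 0.14, adjusted p = 0.000192). For these 3 genes both bud arrays lay below the filter intensity and both mesenchyme arrays well above it.

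Hoxb6 and Hoxd8 were higher in the rat bud. Hoxb6 read 1614 and 1621 in buds and 545 and 454 in mesenchyme, the bud arrays lying close together and above both mesenchyme arrays, with a difference of 1.67 (SE 0.14, adjusted p = 0.000985). Hoxd8 read 494 and 447 in buds and 167 and 167 in mesenchyme, again without overlap, and differed by 1.41 (SE 0.1, adjusted p = 0.000685). Hoxd9 differed between its probe sets. On design C it read 1361 and 1815 in buds and 456 and 455 in mesenchyme, a difference of 1.75 (SE 0.17, adjusted p = 0.0042), while on design B it read 226 and 252 in buds and 249 and 257 in mesenchyme, overlapping, a difference of -0.08 (SE 0.11, adjusted p = 0.642). The call on design C was lost when either mesenchyme array was left out, with adjusted p of 0.0776 without the first and 0.068 without the second, although the differences were 1.75 in each case.

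**Figure D4:**
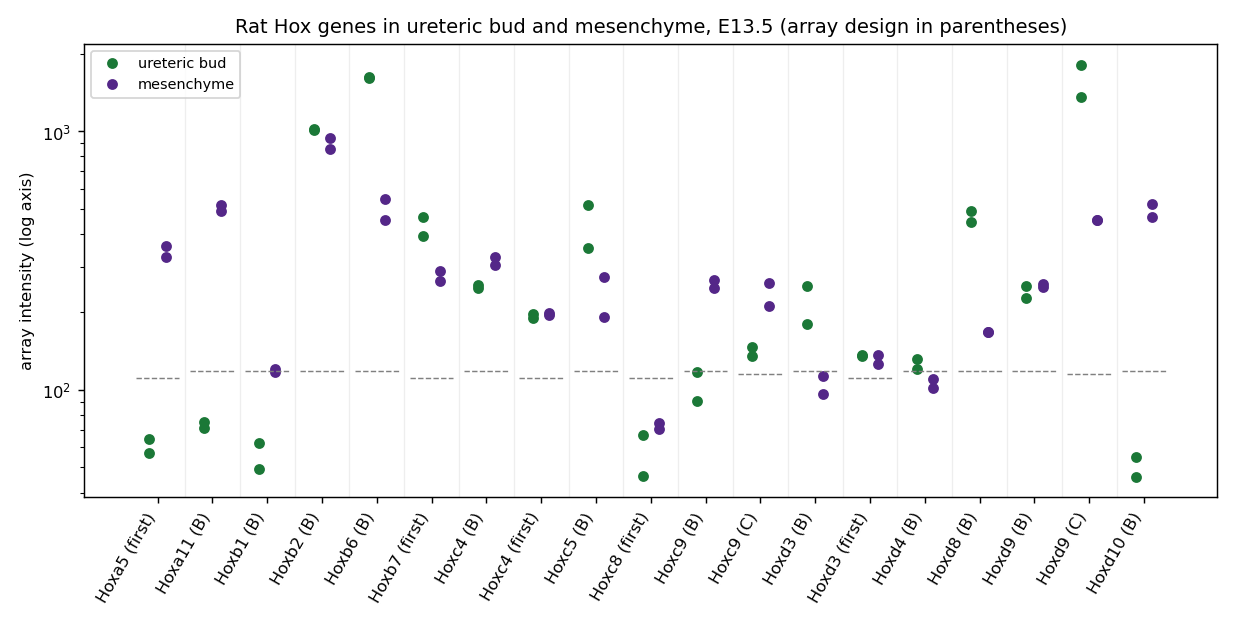
Normalised intensity (log axis) of 15 rat Hox genes, with 2 arrays each of ureteric bud and mesenchyme as single points, the array design in parentheses and the filter intensity of each design as a dashed line. Hoxa5, Hoxa11 and Hoxd10 are lowest in buds, and Hoxb6, Hoxd8 and the design C probe set of Hoxd9 are highest in buds.

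Hoxc9 was the other rat gene called. It read 117 and 90.5 in buds and 265 and 249 in mesenchyme on design B and 146 and 135 in buds and 258 and 211 in mesenchyme on design C, buds lower on each. Its difference was -1.20 (SE 0.14, adjusted p = 0.00312) on design B, a difference of -0.94 with a pseudocount of 64, and it was not called at -0.67 on design C. Hoxb7, the gene whose promoter drives bud transgenes, read 465 and 393 in buds and 263 and 289 in mesenchyme. Its bud arrays were above those of mesenchyme, but the difference of 0.60 (SE 0.14, adjusted p = 0.0418) was under 2-fold. Hoxb1 and Hoxd3 on design B were near 2-fold, at -0.92 (SE 0.15, adjusted p = 0.0107) and 0.93 (SE 0.17, adjusted p = 0.0172), while Hoxd3 on the first design was at 0.04. Leaving out the first bud labeling of design B kept only the bud array with the Gapdh ratio of 5.28. Hoxb1 was then at -1.04, Hoxd3 at 1.15 and Hoxc5 at 1.12, past 2-fold. Hoxb2, Hoxc4 and Hoxd4 were not called, with differences of 0.17, -0.31 and 0.22 on design B, and Hoxc4 was at -0.02 on the first design.

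For a comparison of the species, mouse tips and stalks were averaged with equal weight and set against mouse mesenchyme. Of the 28 mouse genes 15 were called in that comparison, 3 higher and 12 lower in the bud, with 4.65% called over all probe sets (2.88% higher and 1.77% lower). The species share no array, and the stages, the dissected pieces and the probe sets differ. A rat value could be set beside a tested mouse gene 16 times, for 12 genes. The sign was the same in both species for 13 of the 16. These include rat values near 0, Hoxc4 at -0.02 and Hoxd3 at 0.04 on the first design, and genes on several designs entered once for each. The share with the same sign over all genes measured in both species was not determined. The sign differed for Hoxb2 (-0.17 in mouse, 0.17 in rat), Hoxc5 (-1.05 and 0.86) and Hoxd9 on design B (0.61 and -0.08), none of which was called in rat. All 7 called rat values had the same sign as the mouse difference, and 4 of them were called in mouse as well. These 4 genes were Hoxa5 (-1.58 in mouse, -2.23 in rat), Hoxa11 (-1.72 and -2.55), Hoxd8 (1.63 and 1.41) and Hoxd10 (-1.63 and -2.94).

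**Figure D5:**
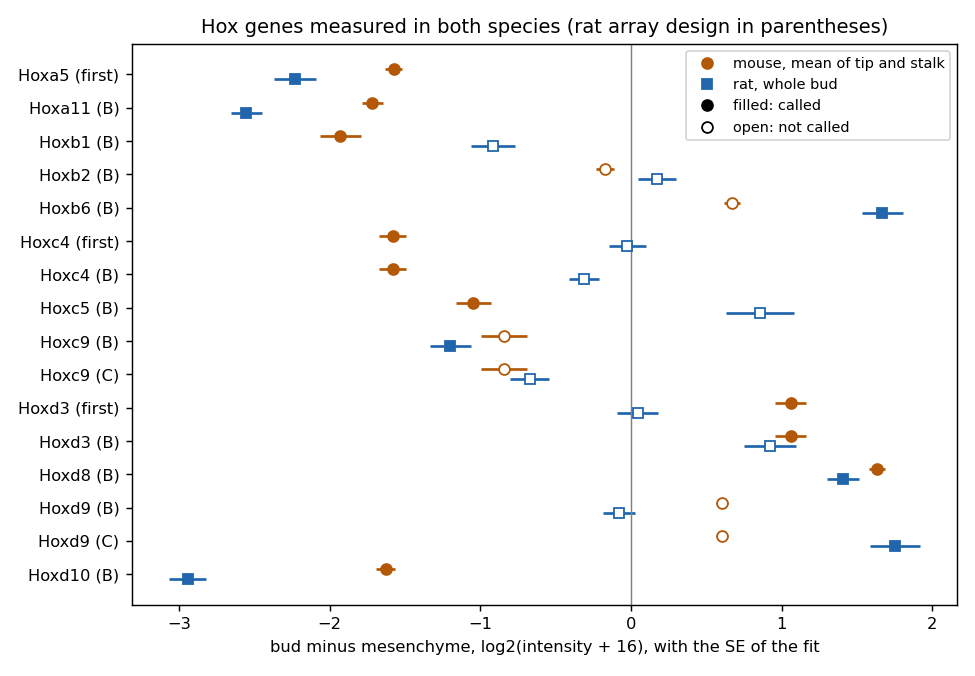
Bud minus mesenchyme log2 differences, with the SE of the fit, for the mouse mean of tips and stalks (circles) and the rat whole bud (squares), filled where called, with the rat array design in parentheses. Hoxa5, Hoxa11, Hoxd8 and Hoxd10 are filled in both species with the same sign, and Hoxb2, Hoxc5 and the design B value of Hoxd9 have opposite signs.

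Hoxb6, Hoxc9 and Hoxd9 were called in rat and not in the mouse bud mean, where they stood at 0.67, -0.84 and 0.61. Hoxc4 was called in mouse, at -1.58 (SE 0.089, adjusted p = 2.58e-06), and not in rat. Hoxd3 was at 1.06 (SE 0.1, adjusted p = 9.3e-05) in mouse, and without the second mesenchyme array it was at 0.95 and with a pseudocount of 64 at 0.83, not called in either. The mouse bud call of Hoxa10 was lost with the mean of its probe sets, at -0.88, and that of Hoxd12 with a pseudocount of 64, at -0.94. The other Hoxa10 probe set in that mean was below the filter, at 11.1 to 13.95 over all mouse arrays. Hoxa2, at -0.96, was called under 3 alternatives that each left out 1 array. Whether these differences differ between species was not tested. The change of sign between Hoxd8 and Hoxd10 was present in both species, with Hoxd8 above and Hoxd10 below 0 by more than 2-fold. For mouse this was the mean of tips and stalks, and in stalks alone Hoxd10 was at -0.50, under 2-fold.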

How the data were processed

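Per the labels' descriptions, 1 ug of each RNA went into each of 2 labelings made with the array maker's protocol. The authors deposited 1 table for mouse and 1 for each of 3 rat designs, with 1 linear intensity per probe set and array, and how they were scaled or summarised was not given in the sources used here. Each table was quantile normalised on its own, 16 was added and log2 was taken. Control probe sets were left out, and probe sets with 1 tissue mean at or above the table median were tested: 23919 of 45037 in mouse and 4616, 4657 and 4648 on the rat designs (filter intensities of 111, 118 and 115). Differences were fitted with limma 3.58.1 in R 4.3.3 (lmFit, eBayes with trend), all 6 mouse arrays in 1 fit and each rat design in its own, and adjusted over all probe sets tested. The fit was tested on simulated data. Genes were named from the platform annotation. Array values were given for Hox genes called in at least 1 comparison and for groups 9 to 11, other genes by a difference or range, and a second probe set where its call differed. The Hox genes, marker lists, comparisons and alternatives were chosen with earlier results of these data known, and the lists were described by counts and medians without a test of the list. The number of arrays limits the precision.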

Additional observations from a re-analysis of the deposited data

Results flagged for a closer look

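Hoxc5 had differences of opposite sign in the 2 species, and on its representative probe sets the bud arrays did not overlap those of mesenchyme in either. The rat bud minus mesenchyme difference on design B was 0.86 (adjusted p = 0.0521 by limma), with intensities of 354 and 518 in buds and 274 and 192 in mesenchyme. Without the second bud labeling, which had a Gapdh 3′ to 5′ ratio of 5.28, the difference was 0.59. In mouse the mean of tips and stalks was below mesenchyme by a log2 difference of -1.05 (SE 0.12, adjusted p = 0.000208), which was -0.91 and not called without the first mesenchyme array. The rat difference was not called, and a second mouse probe set, with 41.4 and 48.3 in tips, 43.1 and 39.9 in stalks, and 48.0 and 57.8 in mesenchyme, overlapped and gave -0.22. The difference between the species was not tested.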

How the results depend on the processing

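Of 57 calls for single genes over the 7 comparisons, 47 were called under every alternative, and 7 more gene differences were called under an alternative only. None of these reversed its direction, and the sign of genes that no setting called was not followed. Leaving out 1 array at a time gave 12 to 13 Hox genes between tips and stalks, 18 to 20 between tips and mesenchyme, 5 between stalks and mesenchyme, 14 to 16 for the mouse bud mean, 1 on the first rat design, 5 to 8 on design B and 0 to 1 on design C. The value of 8 came without the first bud array of design B and the value of 0 without either mesenchyme array of design C. Deposited or trimmed-mean scaling, a pseudocount of 64, no filter and the mean of all probe sets of a gene gave 11 to 12, 16 to 18, 4 to 5, 12 to 15, 1, 4 to 5 and 1. With a pseudocount of 64, the probe sets called over the whole mouse array fell from 1098 to 671, from 1953 to 1266, from 663 to 392 and from 1112 to 658, and on rat design B from 269 to 172. Leaving out the first bud array moved the first rat design from 267 to 468 and design C from 215 to 352, and leaving out either mesenchyme array of design C gave 79 and 85. Same-numbered arrays deviated together (correlations of 0.22 to 0.57), but the labels do not tie the numbers to a batch and each tissue has only 2, so no pairing was assumed. The replicate block gave 12, 18, 5, 15, 1, 5 and 1 Hox genes, the same counts. Signals near the filter intensity, such as Hoxa2 and the tip values of Hoxc8 and Hoxd12, limit the size of a measurable difference.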

Other observations

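Antisense transcripts of the group 11 locus were measured in both species. The rat Hoxa11 antisense probe set on design C read 143.3 and 113 in buds and 417 and 374 in mesenchyme. Its bud minus mesenchyme difference was -1.52 (adjusted p = 0.00378 by limma). Mouse Hoxa11os differed from mesenchyme by -1.84 in the mean of tips and stalks and by -2.78 in tips. A second Hoxa11os probe set was below the filter. Hoxb5os did not differ by 2-fold between tips and mesenchyme (-0.15 (SE 0.049, adjusted p = 0.0406)), and Hoxd3os1 had its lowest values in stalks, with 263 and 228 in tips, 170.1 and 158 in stalks, and 249 and 219 in mesenchyme. Rat Pbx3 and Pknox2 were called lower in buds on design B, at -1.35 (SE 0.12, adjusted p = 0.00117) and -1.15 (SE 0.12, adjusted p = 0.00249). In mouse the mean of tips and stalks was at -0.58 and -0.52 against mesenchyme, not called, with tips at -1.25 and -1.23 and stalks at 0.10 and 0.18.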
